A study of Mus musculus with 18 samples.

Results

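Terc is the RNA subunit of telomerase, and 6 of 18 lymphomas from mice labelled as lacking it kept a higher signal than the other 12 on 1 of the 2 Terc probes of the array. The 6 lymphomas, numbered 7, 9, 13, 16, 17 and 18, were chosen by the measured value of 1 Terc probe, a log2 ratio above -2.3 against a thymus reference, and the 12 lay below that cutoff. All 18 lymphomas carry the same labels, Atm-/-, mTerc-/-, p53-/-, so each set of lymphomas lacks by label the kinase Atm, which signals DNA breaks, the telomerase RNA (mTerc) and the transcription factor p53. The reference RNA came from the thymus of healthy mice aged 3 weeks that were p53 heterozygotes, and each lymphoma was measured against it with a dye swap on 2-colour Agilent arrays. The sets are not groups of the labels, and no genotype was inferred from them. The labels name neither separate mice nor the age of the lymphoma mice nor the deleted parts of the genes, so a p-value here covers the spread among these samples and nothing wider. No lymphoma of another genotype was measured.

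Telomerase copies the template in Terc onto chromosome ends with its reverse transcriptase, Tert. Dyskerin (Dkc1) and its partners bind the end of Terc and keep it stable, and other enzymes trim the immature RNA. In mice without Terc, telomeres shorten over successive generations. Thymocytes and lymphocytes are among the normal cells that use telomerase. Neither the Terc RNA nor the array probes come with a sequence in the sources used here, so none is shown.

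The values are log2 ratios of lymphoma to thymus, in the likely direction. Which RNA forms the numerator is unstated, and turning the ratio would turn every sign given here, that of Terc included. The base of the deposited logarithm is not stated either, and every fold rests on base 10, which was inferred. Lymphoma 7, among the 6, and lymphomas 12 and 14, among the 12, stood apart from the rest. Their mean correlations with the other arrays, across genes, were 0.12, 0.29 and 0.24, against 0.53 to 0.61 for the other 15. The share of probes without a value was 2.27% to 6.21% in the 6 and 4.53% to 7.79% in the 12. Array medians lay between -0.0020 and 0.12 in the 6 and between -0.038 and 0.083 in the 12. Precision is limited by the number of arrays. Signal intensities were not used here.

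On the probe that set the division, the lymphomas fell into 2 ranges. Its log2 ratios among the 6 were -1.66 in lymphoma 7, -0.79 in lymphoma 9, -1.18 in lymphoma 13, -1.65 in lymphoma 16, -1.29 in lymphoma 17 and -0.88 in lymphoma 18. Among the 12 the lowest ratio was -3.82, the median -3.38 and the highest -2.95. All 18 lymphomas were thus below the thymus reference, by a mean of 1.24 ± 0.37 (SD, n = 6), or 2.36-fold lower, above the cutoff and of 3.37 ± 0.29 (SD, n = 12), or 10.3-fold lower, below it, on this probe. The members nearest the cutoff were lymphomas 7 and 16 on one side and lymphomas 1 (-2.95) and 6 (-2.96) on the other, with a gap of 1.28. These values chose the lymphomas and are given as a description.

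The second Terc probe, designed on another Terc cDNA, did not part the lymphomas. It ranged from -1.40 (lymphoma 7) over a median of -0.62 to 0.24 (lymphoma 9) in the 6, and from -1.37 (lymphoma 14) over -0.13 to 0.96 (lymphoma 6) in the 12. The 2 ranges overlapped, and the mean was lower in the 6 than in the 12, by 0.49 on the log2 scale. The difference on the first probe was 2.13 the other way. A higher Terc signal in the 6 was therefore seen on 1 of 2 probes, and the values do not show whether Terc RNA was absent from the 12. Which part of the RNA either probe reads was not known here.

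**Figure D1:**
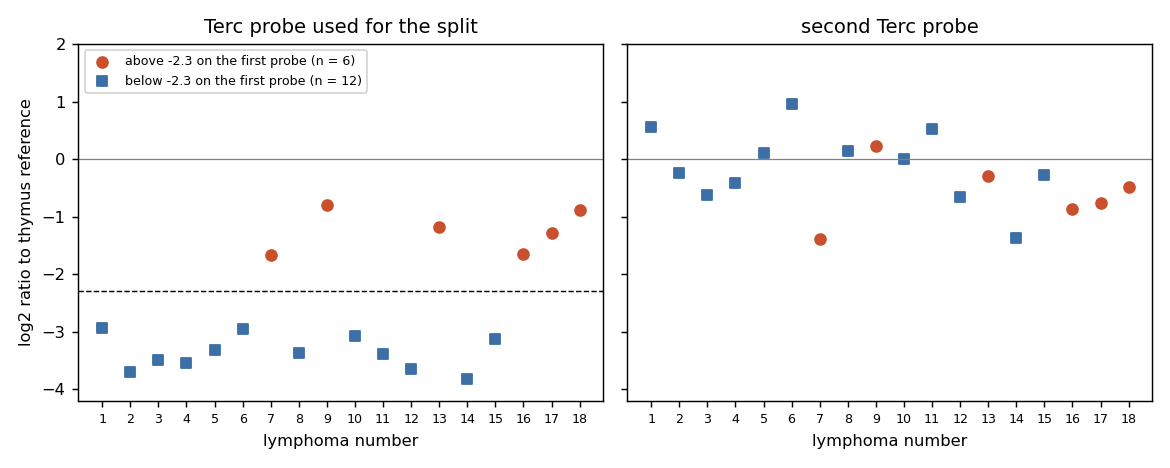
Log2 ratio to thymus of the 2 Terc probes (vertical axis) in each of the 18 lymphomas (horizontal axis), with the cutoff of -2.3 as a dashed line. On the first probe the 6 lymphomas lie between -1.66 and -0.79 and the 12 between -3.82 and -2.95, while on the second probe the sets overlap.

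The other targeted gene that was analysed overlapped between the sets. Atm ranged from -0.97 over a median of -0.63 to -0.36 in the 6 and from -1.76 over -0.62 to 0.56 in the 12. The narrower range of the 6 lay within that of the 12. The difference was -0.02 on the log2 scale (SE 0.27, limma adjusted p = 0.984). The p53 transcript was not analysed here.

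All other genes were compared between the 6 and the 12 with limma. Of 18146 genes, 646 passed at an adjusted p under 0.05, which is 3.56%. Higher in the 6 were 595 of them (3.28%) and lower were 51 (0.281%), so 92.1% of the calls were higher. At 2-fold or more stood 334 of the higher and 12 of the lower genes. Without a correction for the number of genes, 2560 (14.1%) had a p under 0.05, and the median difference of all genes was 0.01. In 166 genes (0.915%) every value of the 6 lay above every value of the 12, and in 7 genes (0.0386%) every value lay below. The split and these genes were read on the same hybridisations.

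The number of calls rested in part on single lymphomas. It was 426 without lymphoma 17, 428 without lymphoma 13 and 463 without lymphoma 18, and it was 773 without lymphoma 7. Without lymphomas 7, 12 and 14 it was 800, 564 of them among the 646. A core of 370 genes was called whichever single lymphoma was left out. With the mean of both Terc probes as a number in place of the 2 sets, 464 genes passed, of which 217 were among the 646.

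Most of the higher genes did not have the form of Terc, which is below thymus in both sets. Of the 595, 301 were above thymus on average in both sets, 260 were above it in the 6 and not in the 12, and 34 were below it in both. The median of their means was 1.01 in the 6 and 0.01 in the 12. The 12 lymphomas thus lay near the thymus level for these genes and the 6 above it. Of the 51 lower genes, 28 were above thymus in the 12 and not in the 6, 9 were above it in both and 14 below it in both, with medians of -0.48 in the 6 and 0.28 in the 12.

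**Figure D2:**
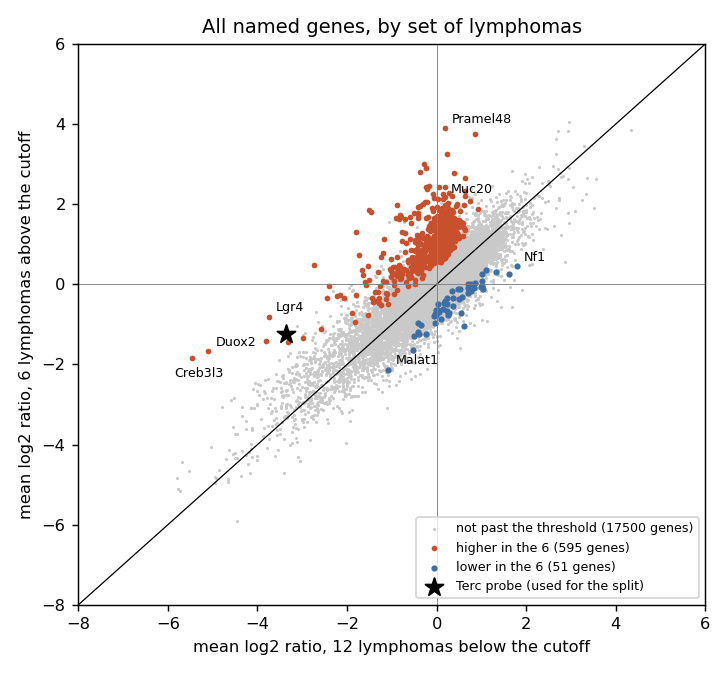
Mean log2 ratio to thymus of each gene in the 12 lymphomas below the cutoff (horizontal axis) and in the 6 above it (vertical axis), with 595 genes called higher in the 6 in red, 51 called lower in blue and the Terc probe as a star. The red cloud is centred near 0 for the 12, and only a few red points lie far to the left as Terc does.

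Among the few genes low in both sets, 3 were also among the 12 genes with the largest increase. Duox2, an oxidase that makes hydrogen peroxide at mucosal surfaces and in the thyroid, ranged from -2.32 over a median of -1.67 to -1.10 in the 6 and from -5.88 over -5.13 to -4.04 in the 12. The sets did not overlap. The difference was 3.44 (SE 0.24, 10.8-fold, limma adjusted p = 2.63e-07). Creb3l3, a transcription factor of lipid metabolism in liver and gut, ranged from -2.65 over -1.78 to -1.21 in the 6 and from -6.89 over -5.71 to -3.90 in the 12. Lymphoma 6 was the highest of the 12 for both genes, and no value of the 12 reached the 6. The difference for Creb3l3 was 3.63 (SE 0.35, 12.4-fold, limma adjusted p = 1.35e-05).

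Lgr4, a receptor for R-spondins that strengthens Wnt signals, showed the same form. It ranged from -1.66 over -0.78 to -0.05 in the 6 and from -4.51 over -3.71 to -2.58 in the 12. The sets did not overlap, and lymphoma 7 was the lowest of the 6. The difference was 2.95 (SE 0.27, 7.70-fold, limma adjusted p = 1.10e-05). Each of these 3 genes rests on 1 probe, and each passed in 31 of 31 alternative settings that could change the fit. Others of the 34 genes were Eml6, at -0.04 in the 6 and -2.41 in the 12 on average, Syt6, a synaptotagmin, at -0.35 and -2.45, Ppp1r14c, an inhibitor of a protein phosphatase, at -1.43 and -3.32, and 2810459M11Rik at -1.42 and -3.80. In 9 of the 34 (26.5%) the sets did not overlap, against 166 of all 595 higher genes (27.9%). This form was singled out after the values were seen. A mean under -2 in the 12 was common, in 646 of all 18146 genes. This count equals the number of calls but is of another set of genes. Of these low genes, 13 were called higher in the 6, a smaller share than the 3.28% of all genes.

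Other genes with a large increase were near thymus in the 12 and far above it in the 6. Pramel48, of a large family of PRAME-like genes with near-identical copies, ranged from 0.63 over 4.26 to 5.75 in the 6 and from -0.42 over 0.22 to 0.61 in the 12. Lymphoma 7 held the value of 0.63, just above lymphoma 10 of the 12, and the other 5 lay between 3.38 and 5.75. The difference was 3.71 (SE 0.49, limma adjusted p = 0.000162). BC061237 ranged from 0.62 over 2.63 to 5.97 in the 6 and from -0.80 over -0.11 to -0.02 in the 12. Lymphoma 7 was again the lowest and lymphoma 18 the highest. The difference was 3.14 (SE 0.50, 8.84-fold, limma adjusted p = 0.000854), and it lost its call with the mean of both Terc probes (adjusted p = 0.0534) and with the olfactory receptor median as a covariate (0.157). Its adjusted p spanned 6.67e-05 to 0.157 over the alternatives.

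In 3 of the 12 genes with the largest increase the sets overlapped. Ptchd4, a patched-domain membrane protein, ranged from 1.27 over 1.74 to 2.88 in the 6 and from -3.09 over -1.76 to 2.38 in the 12, where lymphoma 14 held the 2.38. The other 11 of the 12 lymphomas were below 0. Its difference was 3.37 (SE 0.54, limma adjusted p = 0.00096). Cldn13, of the claudin family of tight junction proteins, differed by 3.09 (adjusted p = 0.0018), and Gm3002, a predicted gene, by 3.30 (adjusted p = 0.000415). Each of these 3 genes missed the threshold in 1 of 31 alternative settings, at adjusted p-values of 0.390, 0.184 and 0.0605. That setting was the mean of both Terc probes for Ptchd4 and Cldn13 and the olfactory receptor covariate for Gm3002. Sec14l4, of a family of lipid-binding proteins, differed by 3.21 (adjusted p = 0.000111) with no overlap, although lymphoma 12 at 0.04 lay close to the lowest of the 6 at 0.13. Gm3373, 1700084M14Rik and A830021M18Rik, for which no role is given here, differed by 3.27, 3.18 and 3.02, and for each of them the sets did not overlap. With the mean of both Terc probes, Sec14l4 (adjusted p = 0.168), Gm3373 (0.0503) and 1700084M14Rik (0.0535) missed the threshold too, each in this setting alone. A830021M18Rik passed in all 31.

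**Figure D3:**
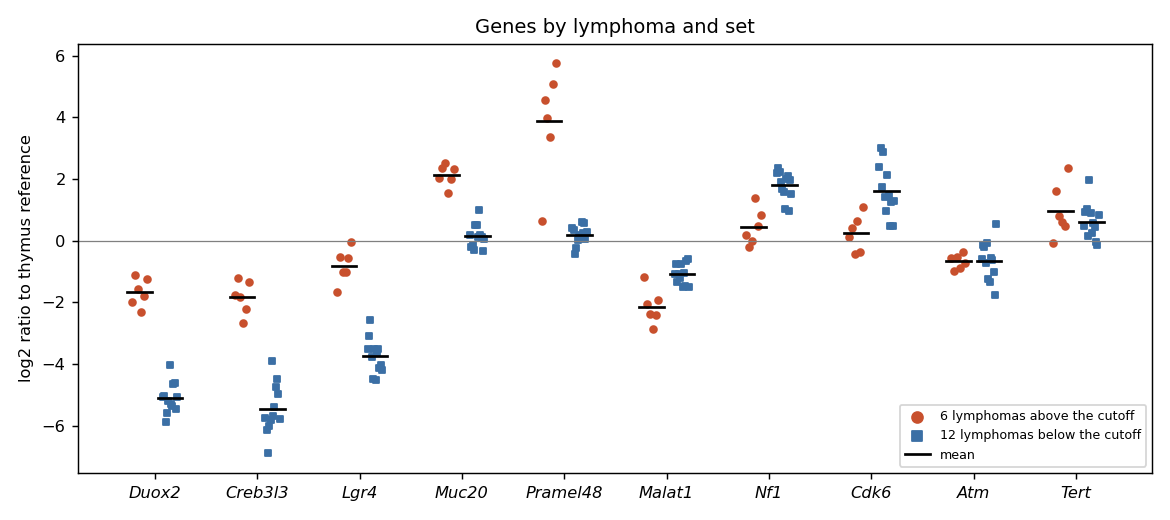
Log2 ratio to thymus (vertical axis) of 10 genes in the 6 lymphomas above the cutoff (red circles) and the 12 below it (blue squares), each point 1 lymphoma and each black line the mean of a set. Duox2, Creb3l3, Lgr4 and Muc20 show no overlap, Malat1, Nf1 and Cdk6 overlap with lower means in the 6, and Atm and Tert overlap.

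The genes lower in the 6 differed by less. Nf1, which encodes neurofibromin, a brake on Ras, ranged from -0.20 over 0.34 to 1.40 in the 6 and from 0.98 over 1.94 to 2.36 in the 12. Of the 6, lymphoma 16 alone reached into the range of the 12. The difference was -1.34 (SE 0.25, 2.54-fold lower, limma adjusted p = 0.00309). Malat1, a nuclear long non-coding RNA, ranged from -2.87 over -2.22 to -1.19 in the 6 and from -1.51 over -1.08 to -0.59 in the 12. Lymphoma 7 was the one member of the 6 inside the range of the 12. The difference was -1.05 (SE 0.22, 2.07-fold lower, limma adjusted p = 0.00684), and it was -0.45 with the olfactory receptor median as a covariate (adjusted p = 0.384, the highest of its alternatives, which began at 0.000557).

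Among the other genes with the largest decrease, Cdk6, a cyclin-dependent kinase of early cell cycle, differed by -1.38 (SE 0.37, limma adjusted p = 0.0409) and passed in 16 of 31 alternative settings. Its values ran from -0.42 to 1.11 in the 6 and from 0.48 to 3.01 in the 12, and the sets overlapped. Pank3, a kinase of coenzyme A synthesis, differed by -1.65 (adjusted p = 0.0286), Clic4, an intracellular chloride channel protein, by -1.07 (0.0136), Cd200r1, an inhibitory receptor of myeloid cells, by -1.12 (0.0247) and Slc38a2, a transporter of small neutral amino acids, by -1.01 (0.0105). In all 4 the sets overlapped. Calcoco1, an autophagy receptor, differed by -1.27 (adjusted p = 0.0377), Ust, a sulfotransferase, by -1.15 (0.0241), Ptpdc1, a phosphatase, by -1.05 (0.0218) and Sec61a2, a subunit of the translocon, by -1.01 (0.0478). Calcoco1 passed in 15 of 31 alternative settings and Sec61a2 in 13, against 24 to 26 for Pank3, Cd200r1, Ust and Ptpdc1. In 1 gene of these 12, 3830408C21Rik, the sets did not overlap (-1.03, adjusted p = 0.00234).

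The genes most like the Terc probe were ranked by Pearson's r over the 18 lymphomas. Because the lymphomas fall into 2 ranges on that probe, r cannot be read apart from the gap between the sets and is given as a description. Muc20, a membrane mucin, had the highest r (0.968), followed by Duox2 (0.966), Hes2, a helix-loop-helix repressor (0.959), Slc14a2, a urea transporter of the kidney (0.951), and Akr1c6, an aldo-keto reductase (0.946). The 2 probes of Hes2 were unlike, with differences between the sets of 2.23 (limma adjusted p = 7.73e-06 among named probes) and 0.53 (0.126). Both probes of Slc14a2 passed. Muc20 ranged from 1.53 over 2.18 to 2.53 in the 6 and from -0.33 over 0.13 to 1.01 in the 12, without overlap. The lowest r belonged to Atat1, the acetyltransferase of tubulin (-0.890), 3830408C21Rik (-0.846), Fgfrl1, a receptor of fibroblast growth factors that lacks a kinase (-0.820), Fam20b, a kinase of proteoglycan synthesis (-0.816), and Pja2, a ubiquitin ligase (-0.813). In Fam20b and Pja2, 1 of 2 probes passed alone, at -0.88 (limma adjusted p = 0.0186 among named probes) and -0.89 (0.0078). Their other probes were at -0.30 (0.602) and -0.57 (0.174). All probes of Atat1 passed. Atat1 was at -0.45 or lower in each of the 6 and between -0.24 and 0.67 in the 12, without overlap.

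None of the measured genes listed as working with Terc was called, which is near the share of all genes for so short a list. Of 16 measured genes of telomerase components and helicases, 0 were called, against 3.56% of all genes, and 2 had an unadjusted p under 0.05. Their median difference was -0.07, against 0.01 for all genes. Tert ranged from -0.07 over 0.70 to 2.35 in the 6 and from -0.14 over 0.54 to 1.96 in the 12, and the ranges lay over each other. The difference was 0.34 (SE 0.33, adjusted p = 0.704). Dkc1 differed by -0.40 (adjusted p = 0.659). The members with the smallest p were Tent4b, a polymerase that adds adenines to immature Terc in human cells, at -0.41 (adjusted p = 0.246), and Zcchc8, which guides such RNA to the exosome, at -0.56 (adjusted p = 0.256). Parn, which removes those adenines, differed by 0.01 (adjusted p = 0.992).

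The list of shelterin, which caps telomeres, and of the CST complex, which helps to fill in their ends, also held the tankyrases Tnks and Tnks2. Of its 12 genes, 0 were called (3.56% of all genes) and 2 had an unadjusted p under 0.05 (14.1% of all genes). Their median difference was -0.06. In lists and neighbourhoods of this size, 0 calls are near the share of all genes. Tnks, the tankyrase that releases a shelterin subunit from telomeres in human cells, ran from -0.33 to 0.05 in the 6 and from -0.14 to 1.05 in the 12. The sets overlapped, the difference was -0.61 (SE 0.17) and the adjusted p was 0.0596. Its 3 probes disagreed, with differences of -1.10 (adjusted p = 0.000478 among named probes), -0.59 (0.317) and -0.14 (0.844). Tinf2, the bridge within shelterin, differed by -0.47 (adjusted p = 0.102). Of 23 genes of recombination and alternative lengthening of telomeres, 0 were called and the median difference was 0.04. Of 14 genes of checkpoint signalling, 0 were called and the median was -0.08, with H2ax, the histone marked at DNA breaks, at -1.05 (adjusted p = 0.133).

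Over all 29 lists beside the targeted genes, 2 of 392 measured genes were called (0.51%), and 24 (6.12%) had an unadjusted p under 0.05, against 14.1% of all genes. The called members were Polk, a translesion polymerase in the list of p53 targets, and Xcr1, a chemokine receptor of dendritic cells. Polk ran from -0.95 to -0.21 in the 6 and from -0.14 to 0.67 in the 12. The sets did not overlap, and the difference was -0.63 (SE 0.15, limma adjusted p = 0.0202). Polk passed in 28 of 31 alternative settings. Neither of its 2 probes passed alone, with differences of -0.58 (limma adjusted p = 0.146 among named probes) and -0.68 (0.185). Xcr1 ran from -1.31 to -0.15 in the 6 and from -1.94 to -0.61 in the 12, with a difference of 0.77 (adjusted p = 0.0496), and it passed in 7 of 31 alternative settings. Its 2 probes disagreed, with differences of 1.25 (limma adjusted p = 0.0121 among named probes) and 0.28 (0.801). The remaining 27 lists, from cortical thymocytes and the T cell receptor to mitosis, glycolysis and the Notch pathway, had no called member.

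Marker lists of other cell types varied widely within each set. In such bulk RNA, fewer cells of a type and less RNA per cell cannot be told apart. The mean of 14 macrophage genes lay between -3.20 and 0.80 in the 6 and between -3.34 and 2.47 in the 12. That of 12 fibroblast and matrix genes lay between -3.46 and 0.80 and between -3.42 and 4.06, with a median difference of -0.98 and 0 genes called. That of 11 striated muscle genes lay between -1.55 and -0.20 and between -1.68 and 3.59. The mean of 14 thymic epithelium genes lay between -3.62 and -0.20 in the 6, where lymphoma 7 held -0.20 and the next value was -3.00, and between -4.19 and -0.04 in the 12, with 0 called. All these ranges overlapped. With the macrophage mean as a covariate, 703 genes were called, 637 of them among the 646. A covariate of the mean of Y-linked genes gave 597 called genes, 541 of them among the 646. The mean of 14 genes of the T cell receptor complex and its signalling lay between -1.16 and 0.20 in the 6 and between -2.73 and 0.28 in the 12, with 0 called.

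The share of genes called higher differed between gene families. Families were formed by the stem of the symbol, after the data had been seen, and 59 families had at least 25 measured genes. Of 674 olfactory receptor genes (Olfr), the odour receptors of the nose, 86 were called higher (12.8%, against 3.28% of all genes) and 0 lower. Of 91 vomeronasal receptor genes (Vmn), which detect pheromones, 19 were called higher (20.9%). Of 27 keratin-associated protein genes (Krtap), structural proteins of hair, 10 were called higher (37.0%). The shares were 15.4% of 26 beta-defensin genes (Defb) and 13.5% of 74 cytochrome P450 genes (Cyp), and of 40 keratin genes (Krt) 4 were called higher. Leaving out 1 lymphoma gave 11 (without 17) to 24 (without 7) Vmn calls, 4 (without 18) to 13 (without 16) Cyp calls, 2 to 4 Defb calls (2 without 13 or 17) and 2 to 5 Krt calls (2 without 13 or 18). Without lymphoma 13, Vmn had 12 and Cyp 5 calls, without lymphoma 17 Cyp had 5, and without lymphoma 18 Vmn had 12. With the mean of both Terc probes there were 9 Vmn, 2 Cyp, 1 Defb and 0 Krt genes called higher. In that setting 53 of 674 Olfr and 9 of 27 Krtap genes were called higher, against 348 of all 18146 genes. Among the 646 calls, none of these 6 families had a lower member. With the mean of both Terc probes, 1 Vmn and 1 Cyp gene were called lower. With lymphoma 11 left out, or with the macrophage covariate, 1 Cyp gene was called lower. Many olfactory and vomeronasal receptor genes are near copies of each other. Whether members share signal on a probe was not tested.

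Some other families were at or below the share of all genes, 3.56%. Of 46 Rpl and 34 Rps ribosomal protein genes, 49 Mrpl genes of the mitochondrial ribosome and 42 collagen genes (Col), 0 were called. Of 318 Zfp zinc finger genes, 5 were higher and 2 lower (2.20%). Of 340 Slc solute carrier genes, 11 were higher and 1 lower (3.53%), near the share of all genes. Above that share were also Prss (9.38% of 32), Sh (8.33% of 36), Sec (7.41% of 27), Dnajc (7.14% of 28), Tex (6.67% of 30) and Gpr (6.56% of 61). So were Fam (5.73% of 157), Atp (5.33% of 75), Il (5.33% of 75) and Cdk (3.85% of 26). Clec, Lrrc and Trim, each at 3.57%, were near it. In all, 26 of the 59 families had no call.

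**Figure D4:**
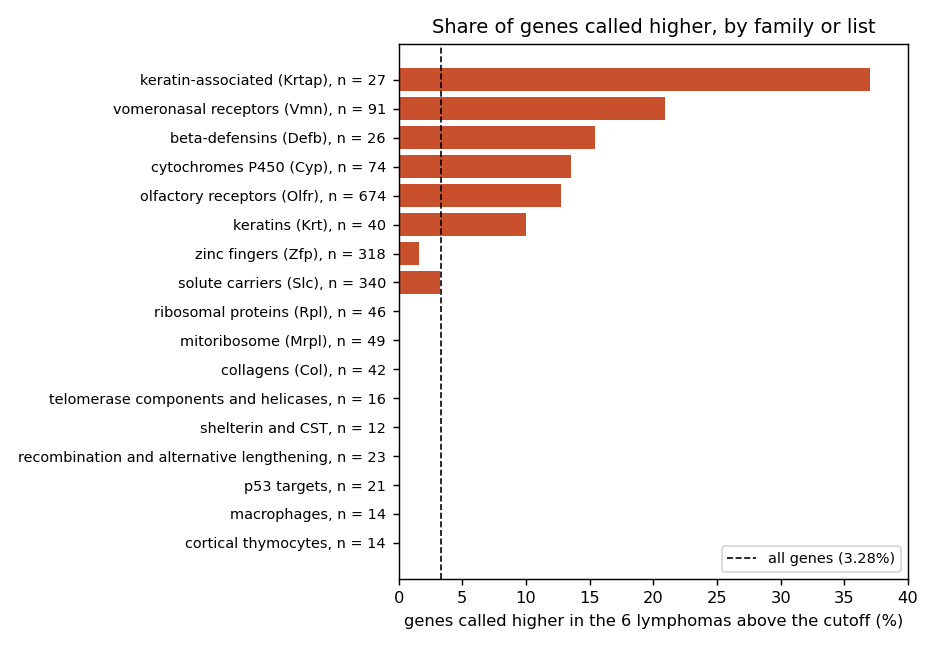
Share of measured genes called higher in the 6 lymphomas above the cutoff (horizontal axis, percent) for symbol families and gene lists (vertical axis, with the number measured), with the share of all genes, 3.28%, as a dashed line. Keratin-associated genes reach 37.0% and olfactory receptors 12.8%, while ribosomal, telomerase and shelterin genes show no bar.

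The olfactory receptors moved by a small amount as a family and by larger amounts as single genes. Olfr1121 was at 1.94 ± 0.80 (SD, n = 6) in the 6 and at -0.42 ± 0.49 (SD, n = 12) in the 12, a difference of 2.36 (limma adjusted p = 0.000107), with no overlap. It had the largest difference of the family. Over the family, 556 of 674 differences were positive and the median difference was 0.30. The median of the family in each lymphoma was 0.04 in lymphoma 7, 0.42 in 9, 0.52 in 13, 0.34 in 16, 0.57 in 17 and 0.55 in 18. It lay between -0.01 and 0.23 in the 12, so that lymphoma 7 was within the range of the 12 and the other 5 were above it. Called members numbered 126 without lymphoma 7, 45 without lymphoma 17, 47 without lymphoma 13 and 52 without lymphoma 18. The Krtap family median lay between 0.46 and 0.95 in the 6 and between -0.14 and 0.34 in the 12, without overlap, and 9 to 12 of its genes were called when any 1 lymphoma was left out. Krtap6-1 led it, at 1.54 ± 0.97 in the 6 and -0.58 ± 0.43 in the 12 (difference 2.12, adjusted p = 0.000426).

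**Figure D5:**
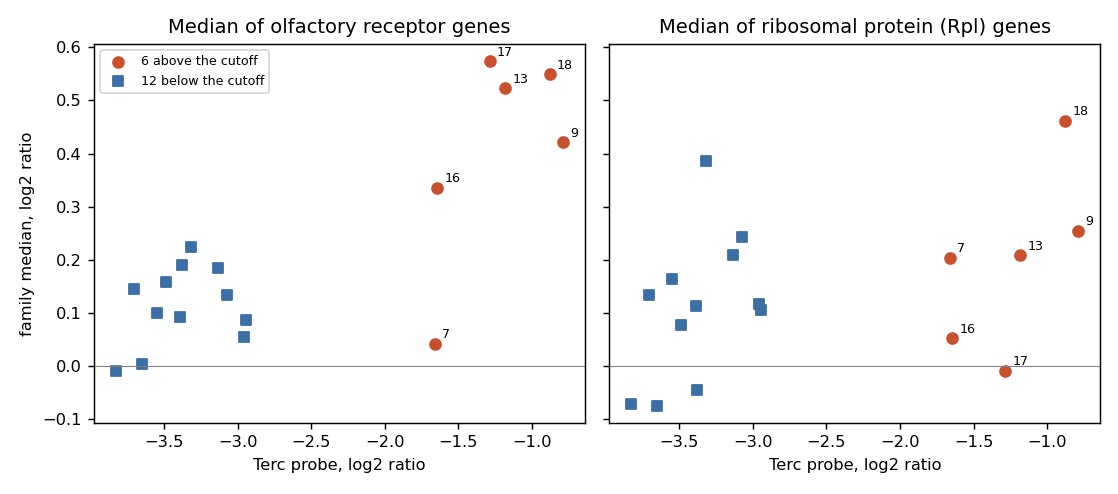
Median log2 ratio of 674 olfactory receptor genes (left) and of 46 Rpl ribosomal protein genes (right) in each lymphoma (vertical axes) against its log2 ratio on the Terc probe (horizontal axes), with the 6 lymphomas numbered. Lymphomas 9, 13, 16, 17 and 18 lie above all others on the left and lymphoma 7 does not, while on the right the sets overlap.

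The calls also differed in the probes behind them. Of the 595 higher genes, 473 rested on 1 probe (79.5%), against 57.6% of all genes and 18 of the 51 lower genes (35.3%). Of the 122 higher genes with several probes, all probes had the same sign in 110. Tested as single probes and adjusted apart, 629 of 7694 probes without a gene name (8.18%) were called, 495 higher and 134 lower, and 961 of 29559 named probes (3.25%). The difference between these shares has no test. With the olfactory receptor median of each lymphoma as a covariate, an alternative added after the data were seen, 919 genes were called, and 150 of the 646 (23.2%) were among them. Duox2, Creb3l3, Lgr4, Muc20 and Pramel48 kept their calls there, with differences of 3.33, 4.05, 2.48, 1.75 and 1.82. At least 1 probe measured on all 18 arrays was present for 441 of the 674 olfactory receptor genes and for 16932 of all 18146 genes. The part of weak or missing signal in the calls was not tested.

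None of the genes measured beside Terc on chromosome 3 was called. Of the 10 measured genes on each side, 0 of 20 were called, near the 3.56% of all genes, and their median difference was 0.02. The differences ran from -0.61 for Pias3, an inhibitor of STAT proteins, to 1.03 for Ankrd35 (adjusted p = 0.357 and 0.374). Fcgr1, an antibody receptor of macrophages and the nearest measured gene on one side, differed by -0.34 (SE 1.07, adjusted p = 0.937), and Gm10685, the nearest on the other side, by 0.25 (adjusted p = 0.651). H2bc18, a histone gene, had the smallest p of the 20 (0.77, unadjusted p = 0.0239, adjusted p = 0.246). Gene order was taken from assembly GRCm38.p6. The array's own build was not known here.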

How the data were processed

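Per the labels, total RNA of each of 18 lymphomas was hybridised with thymus reference RNA on 2-colour arrays, with a dye swap. The authors deposited log10 ratios of 41175 probes, 1 value per probe and lymphoma. How they normalised the arrays and combined the dye swap is not given in the sources used. Multiplication by 3.3219 turned the deposited log10 ratios into log2 ratios, which were not centred further.

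Of the probes, 31700 carry 1 gene symbol in the platform annotation, 47 several and 9428 none here. Only probes measured on 14 or more of the 18 arrays were kept (37295), and probes of the same gene were averaged (18147 genes, Terc included). The sets were compared with limma 3.58.1 in R 4.3.3 (lmFit, eBayes), with Benjamini-Hochberg adjustment over 18146 genes and a threshold of 0.05. Samples without a value for a gene drop out of its fit. The fit was tested on simulated data.

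The division, the 421 list genes and the families were chosen with earlier results of these data known. Named genes are Terc and Atm, the 12 called genes with the largest difference each way, members of the lists, genes next to Terc, and the 5 highest and 5 lowest correlations with Terc. Genes named for their form or family were chosen after their values were seen. Alternatives changed the filter, the scaling, the cutoff, covariates, the weighting of arrays, the Terc measure and the lymphomas left out.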

Additional observations from a re-analysis of the deposited data

Results flagged for a closer look

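In 9 of 65 measures of the 6 lymphomas, 1 lymphoma lay far from the other 5 by Dixon's test. For independent measures chance gives about 1 in 20, but the 65 share the same 6 arrays, so the rates cannot be compared. Lymphoma 7 was that sample in 8 of the 9. For Sec14l4 it was at 1.56 on the log2 scale and the next value at 0.41. Its cortical thymocyte list mean was -3.49 (next -1.39), its thymic epithelium mean -0.20 (next -3.00), its interferon response mean 0.62 (next -0.96) and its DNA replication mean -0.051 (next 0.60). Its vomeronasal receptor median was 0.12 (next 0.49) and its keratin median 1.20 (next -0.54). Its mean correlation with the other arrays was 0.12 (next 0.53). In lymphoma 17, 2.27% of probes had no value (next 5.65%). The causes were not tested.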

How the results depend on the processing

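The number of called genes, 646, stayed within 1.5 times under each alternative on genes except without lymphoma 13 (428) or 17 (426). Leaving out each lymphoma in turn gave 426 to 773 calls, 387 to 718 higher and 18 to 62 lower. The 595 higher genes fell to 348 with the mean of both Terc probes. The 51 lower genes became 92 with array weights, 116 with the mean of both Terc probes, 163 with the olfactory receptor median as a covariate and 85 without lymphomas 7, 12 and 14. Tested one by one, 961 of 29559 named probes were called, 151 of them lower, which counts probes and not genes. Without one lymphoma the lower genes were 33 (lymphoma 1), 32 (4), 27 (9) and 18 (13). Quantile normalization gave 479 calls, 463 of them among the 646, and moved the median of all genes from 0.01 to -0.03. Cutoffs of -2.0 and -2.6 gave the same sets by construction and are not counted among the 31 alternatives. The causes were not tested.

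Of the 24 genes with the largest differences, none changed direction in the 31 alternatives. Tnks was past the threshold with arrays centred on their median (-0.62), with quantile normalization (-0.65), with the macrophage covariate (-0.61) and without lymphoma 10 (-0.67), and its 3 probes disagreed. A sign change of a value that passed in neither setting was not counted as a reversal. Vomeronasal genes called higher fell from 19 to 0 and olfactory receptor genes called higher from 86 to 7 with the olfactory receptor covariate. That covariate is built from the latter family, and 1 gene each of Vmn, Olfr and Cyp was called lower with it. With it Krtap calls fell from 10 to 3, Krt calls rose from 4 to 24, Defb went from 4 to 5 and Cyp stayed at 10 higher. Of the 441 olfactory receptor genes with a probe on all arrays, 76 were called higher in that setting, against 585 of all 16932 such genes. No paired analysis was possible because the labels put all 18 lymphomas in 1 group.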

Other observations

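Single genes of specialised tissues stood beside the families among the higher calls. They were picked after their values were seen. Prm2, a protamine that packs DNA in sperm, was at 0.99 ± 0.40 (SD, n = 6) in the 6 lymphomas and -0.41 ± 0.25 (SD, n = 12) in the 12. Mug1, a protease inhibitor of liver and plasma, was at 1.31 ± 0.64 and -0.78 ± 0.48, and Hamp2, a relative of the iron hormone hepcidin, at 0.81 ± 0.48 and -0.70 ± 0.23. Prss37, a protease-like protein of testis, was at 1.79 ± 0.58 and -0.51 ± 0.35. In each of these 4 genes the sets did not overlap, as in 166 of all 595 higher genes (27.9%). Being picked, the 4 do not give a share for genes of specialised tissues. Prm1, the other protamine, was at -0.95 ± 0.70 and -1.39 ± 0.67 and was not called (limma adjusted p = 0.601). By chromosome, the share of genes called ran from 2.17% on chromosome 1 to 5.10% on chromosome 14, and it was 2.52% on chromosome 3, which holds Terc.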
